A study of Mus musculus with 5 samples.

Results

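The Kruppel-like factor (KLF) genes were followed across 5 microarrays of mouse embryonic fibroblasts. The members are Klf2, Klf3, Klf4, Klf5, Klf6, Klf7, Klf9, Klf10, Klf11 and Klf13, chosen by symbol from the probe sets that the platform annotation pairs with exactly 1 gene. They account for 10 of 22180 genes and 11 of 23521 such probe sets, because Klf7 has 2. In all 5 groups the cells lacked endogenous STING (STING-/-), an adaptor of cytosolic DNA sensing, and carried its R284S variant instead. The labels describe them as primary cells. The groups were Compound C, an inhibitor of the kinase AMPK and of BMP type I receptors, doxorubicin, a topoisomerase II poison that intercalates DNA, GSK 690693, an AKT inhibitor that also inhibits AMPK, tofacitinib, a JAK inhibitor, and vehicle. Treatment lasted 9 hours, no dose is stated in the labels, and each group has 1 array. Every difference is therefore one between single arrays, with no error, test or p-value.

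KLF proteins are transcription factors that bind GC-rich and CACCC elements through C2H2 zinc fingers at their C-terminus. They differ in the remainder of the protein, which recruits either activators or repressors. Klf2, Klf4, Klf5, Klf6 and Klf7 are often described as activators, Klf3 as a repressor that recruits the corepressor CtBP, and Klf9, Klf10, Klf11 and Klf13 as repressors that recruit SIN3A. Several KLF genes are known to be induced quickly by serum, growth factors or TGF-beta and to give short-lived transcripts. In fibroblasts Klf4 is best known as a reprogramming factor.

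On the doxorubicin array each of the 10 members read lower than on any other array. This held for 25.3% of the genes that a filter on low values kept. At least 2-fold below vehicle there were 6 members, against 6.45% of the kept genes. The array of Compound C held the highest value of 7 members (18.4% of the kept genes), and Klf5 was 2.73-fold above vehicle there. With GSK 690693, Klf2, Klf4 and Klf5 were at least 1.5-fold above vehicle (2.4% of the kept genes). No member was as far below it (3.21%). With tofacitinib no member differed from vehicle by 1.5-fold, where 2.66% of the kept genes were higher and 2% lower. Values are log2 signals of a probe set, and a difference of 1 is 2-fold.

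**Figure D1:**
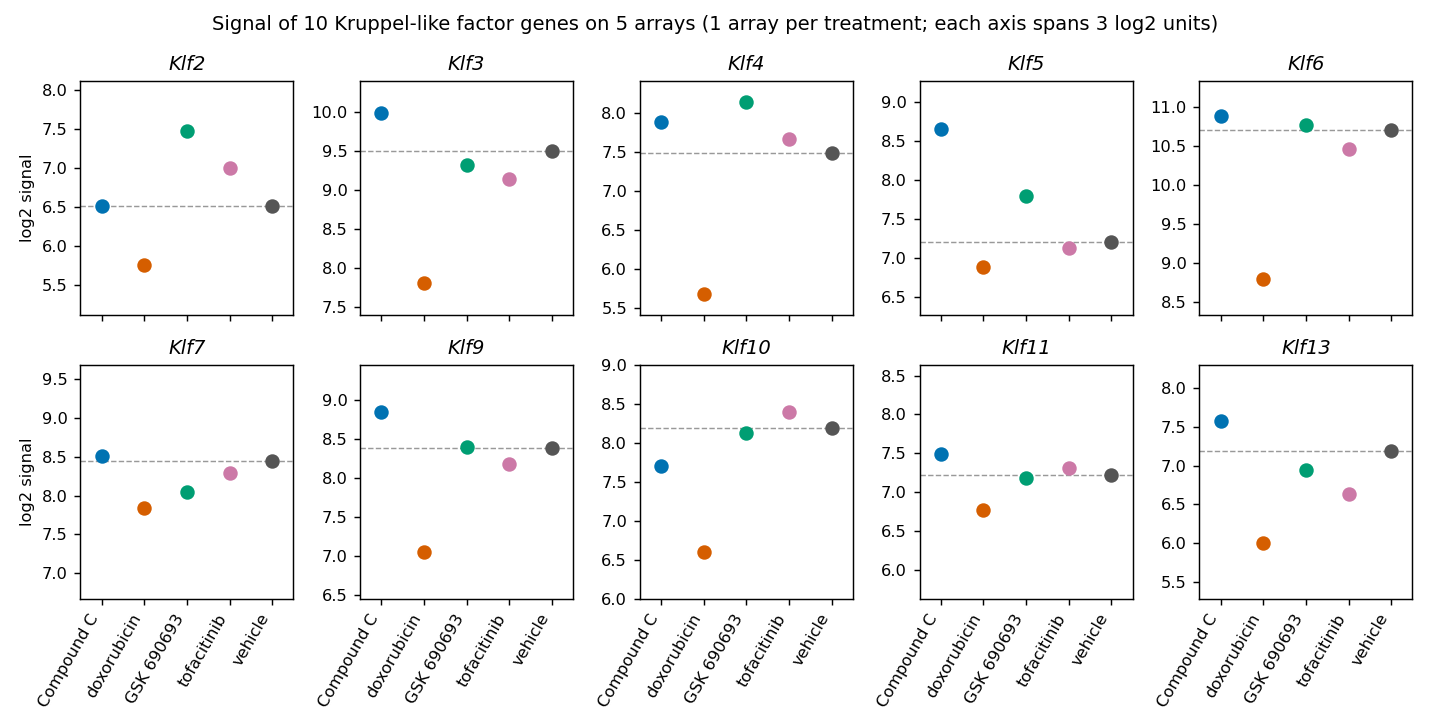
Log2 signal (vertical axes, each spanning 3 log2 units) of the 10 KLF genes on the 5 arrays (horizontal axes), 1 point per array, with a dashed line at the vehicle value. The doxorubicin point is the lowest in all 10 panels, and the Klf6 point lies at 8.79 where the other 4 lie between 10.46 and 10.88.

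Promoter sequences are shown for Klf6, Klf4 and Klf3, the members farthest below vehicle with doxorubicin, and for Klf2, the member farthest above vehicle with GSK 690693. Each is the 250 bases before the annotated start of the gene, 5′ to 3′ on the strand of the gene, from RefSeq on GRCm38.p6. The windows are chr13:5861239-5861488 on the plus strand, chr4:55532476-55532725 on the minus strand, chr5:64803271-64803520 on the plus strand and chr8:72318812-72319061 on the plus strand. Capitals mark the GC box GGGCGG on either strand and, in Klf2 alone, a match to the MEF2 consensus.
Klf6: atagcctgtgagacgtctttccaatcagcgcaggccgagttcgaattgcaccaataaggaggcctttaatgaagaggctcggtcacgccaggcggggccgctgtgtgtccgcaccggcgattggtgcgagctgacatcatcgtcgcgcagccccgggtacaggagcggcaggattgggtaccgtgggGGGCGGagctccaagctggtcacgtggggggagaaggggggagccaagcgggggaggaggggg
Klf4: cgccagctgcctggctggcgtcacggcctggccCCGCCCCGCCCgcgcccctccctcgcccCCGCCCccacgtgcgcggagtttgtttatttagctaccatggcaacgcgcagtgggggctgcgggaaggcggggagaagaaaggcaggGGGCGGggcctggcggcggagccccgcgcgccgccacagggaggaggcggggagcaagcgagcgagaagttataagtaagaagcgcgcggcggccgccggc
Klf3: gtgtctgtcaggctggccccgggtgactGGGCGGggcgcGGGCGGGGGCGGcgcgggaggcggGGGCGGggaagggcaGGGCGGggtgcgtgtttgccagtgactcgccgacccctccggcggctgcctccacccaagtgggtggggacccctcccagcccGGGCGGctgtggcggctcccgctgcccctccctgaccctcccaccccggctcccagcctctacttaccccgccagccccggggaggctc
Klf2: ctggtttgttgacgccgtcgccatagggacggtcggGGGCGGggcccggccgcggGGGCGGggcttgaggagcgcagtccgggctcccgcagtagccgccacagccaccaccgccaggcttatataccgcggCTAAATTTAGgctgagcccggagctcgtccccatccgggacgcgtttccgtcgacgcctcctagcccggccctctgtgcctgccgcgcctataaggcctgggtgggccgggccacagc

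The promoter table held windows for 8 of the 10 members, all except Klf5 and Klf10. At least 1 GC box stood in 7 of the 8, all but Klf9, against 32.7% of 32851 windows of the same length in the table. Klf3 had 6 matches, Klf4 had 4, of which a neighbouring pair shares a base, Klf2 had 2 and Klf6 had 1. Of the members whose sequence is not shown, Klf11 had 4, of which a neighbouring pair overlaps, Klf13 had 3 and Klf7 had 1. The KLF element CACCC, searched on both strands, was found in 5 of the 8 and in 52% of all windows. Klf6, Klf4 and Klf11 were without it, Klf2 had 1 match and Klf3 had 5, of which 1 shares a base with a GC box. The GC content was 64.8% for Klf6, 74.0% for Klf4, 78.4% for Klf3 and 71.2% for Klf2, against a median of 52.4% over all windows. All 8 windows lay above that median, the lowest being Klf7 at 59.2%. The shares of windows with a match were not matched for GC content. The MEF2 match of Klf2 lies at positions −118 to −109 from the start and was the single one among the 8, and 2.92% of all windows held one. A search for GTAAACA, the core bound by FOXO factors, matched Klf9 alone, and 3.17% of all windows. The cAMP response element TGACGTCA, the sequence TATAAA and the CArG consensus of serum response factor matched none of the 8, and 1.55%, 12.4% and 1.47% of all windows. These matches describe letters and were not compared with binding data.

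Of the 10 members, 10 passed the filter on low values, which kept 12317 genes whose highest value reached the median of its array. Those medians lay between 5.37 and 5.44. The second probe set of Klf7 read between 3.34 and 3.91 and was not used for the counts. As context, all 10 fibroblast marker genes lay above the array median on all 5 arrays, and their mean signal ran between 10.44 and 10.62. One of them, Pdgfrb, read 1.21 lower with Compound C (8.66) than with vehicle (9.87). A second probe set of Vim read 1.1 lower with tofacitinib (9.65) than with vehicle (10.75), where its brighter probe set differed by 0.04. The pan-leukocyte marker Ptprc read between 3.65 and 3.86. Among markers of other cell types, Cd68 (7.63 with doxorubicin, 6.56 with vehicle) and Sox2 (5.63 with doxorubicin, 3.92 with vehicle) read at least 2-fold higher with doxorubicin. The rest of their lists did not follow. Differences from vehicle lay between −0.21 (Ptprc) and 0.38 (Lyz2) for the other myeloid markers. For the other pluripotency markers they lay between −0.46 (Esrrb) and 0.22 (Nanog). Sox2 read at most 4.60 on the other 4 arrays, below their medians. Pdgfrb, the second Vim probe set, Cd68 and Sox2 were singled out after their values were seen. Their part in the KLF differences was not tested. In bulk RNA, fewer cells expressing a gene and less RNA per cell cannot be told apart. The closest pair of arrays, GSK 690693 and tofacitinib, had a standard deviation of the log2 difference of 0.258 over the kept genes. This value serves below as a yardstick. These arrays had different treatments, so it is not a spread between replicates and does not measure the error of a single gene.

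Among the members described as activators, Klf6, a factor induced by tissue injury that is known as a tumour suppressor, stood farthest from vehicle. It read 10.88 with Compound C, 8.79 with doxorubicin, 10.77 with GSK 690693, 10.46 with tofacitinib and 10.70 with vehicle. The doxorubicin value was 3.76-fold below vehicle (log2 difference −1.91), and the other 4 arrays lay within 0.42 of each other. Klf4 read 7.88 with Compound C, 5.68 with doxorubicin, 8.14 with GSK 690693, 7.66 with tofacitinib and 7.49 with vehicle. It was the lowest by 1.81 with doxorubicin, 3.51-fold below vehicle, and the highest with GSK 690693. Vehicle was the second lowest array for Klf4, and measured from the median of the other 4 arrays the doxorubicin difference was −2.09.

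Klf2, which in endothelium is induced by flow and in T cells maintains quiescence, had a different order. Its signal was 6.52 with Compound C, 5.76 with doxorubicin, 7.48 with GSK 690693, 7.01 with tofacitinib and 6.52 with vehicle. Compound C and vehicle gave the same value, doxorubicin lay 0.76 below them, and GSK 690693 lay 0.96 above them (1.95-fold). Klf5, a factor linked to proliferation and to adipocyte and smooth muscle differentiation, read 8.66 with Compound C, 6.89 with doxorubicin, 7.80 with GSK 690693, 7.13 with tofacitinib and 7.21 with vehicle. This gene was set apart by its high value with Compound C. Its doxorubicin, tofacitinib and vehicle values lay within 0.32 of each other, and the gap between doxorubicin and tofacitinib, 0.24, was smaller than the yardstick. Against the median of the other 4 arrays in place of vehicle, the doxorubicin difference of Klf5 was −0.62 instead of −0.32.

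Klf7, known for its part in axon growth and as an inhibitor of adipocyte differentiation, varied least, over a range of 0.67. Its brighter probe set read 8.51 with Compound C, 7.84 with doxorubicin, 8.04 with GSK 690693, 8.29 with tofacitinib and 8.44 with vehicle. Doxorubicin and GSK 690693 differed by 0.20, below the yardstick. The dim probe set read 3.43 with Compound C, 3.35 with doxorubicin, 3.34 with GSK 690693, 3.40 with tofacitinib and 3.91 with vehicle, so its vehicle value was the high one and its doxorubicin value was not the lowest.

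The CtBP-recruiting repressor Klf3, also called basic KLF, read 9.99 with Compound C, 7.80 with doxorubicin, 9.32 with GSK 690693, 9.14 with tofacitinib and 9.50 with vehicle. With doxorubicin it lay 1.70 below vehicle (3.25-fold) and 1.34 below the nearest other array, while Compound C gave the highest value, 0.49 above vehicle.

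The SIN3A-recruiting members separated into Klf9, Klf10 and Klf13, each at least 2-fold below vehicle with doxorubicin, and Klf11, which was not. Klf10, first described as TGF-beta inducible early gene, read 7.70 with Compound C, 6.60 with doxorubicin, 8.13 with GSK 690693, 8.40 with tofacitinib and 8.19 with vehicle. It was the one member that read below vehicle with Compound C, by 0.49, and it lay 1.59 below vehicle with doxorubicin (3.01-fold). Klf9, which is induced by glucocorticoid and thyroid hormones, read 8.85 with Compound C, 7.05 with doxorubicin, 8.40 with GSK 690693, 8.18 with tofacitinib and 8.39 with vehicle. The doxorubicin difference was −1.34 (2.53-fold below vehicle), and the other 4 arrays spanned 0.67.

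Klf13, studied as a regulator of the chemokine gene Ccl5 in T cells, read 7.57 with Compound C, 6.01 with doxorubicin, 6.94 with GSK 690693, 6.63 with tofacitinib and 7.19 with vehicle. With doxorubicin it was 1.18 below vehicle (2.27-fold) but 0.62 below tofacitinib. Its difference with tofacitinib, −0.56, was the largest of any member with that compound and was shared or exceeded downwards by 2.26% of all kept genes. Klf11, a relative of Klf10 that is also induced by TGF-beta, read 7.49 with Compound C, 6.78 with doxorubicin, 7.18 with GSK 690693, 7.31 with tofacitinib and 7.22 with vehicle. Without doxorubicin its values lay within 0.31 of each other, and doxorubicin lay 0.44 below vehicle.

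**Figure D2:**
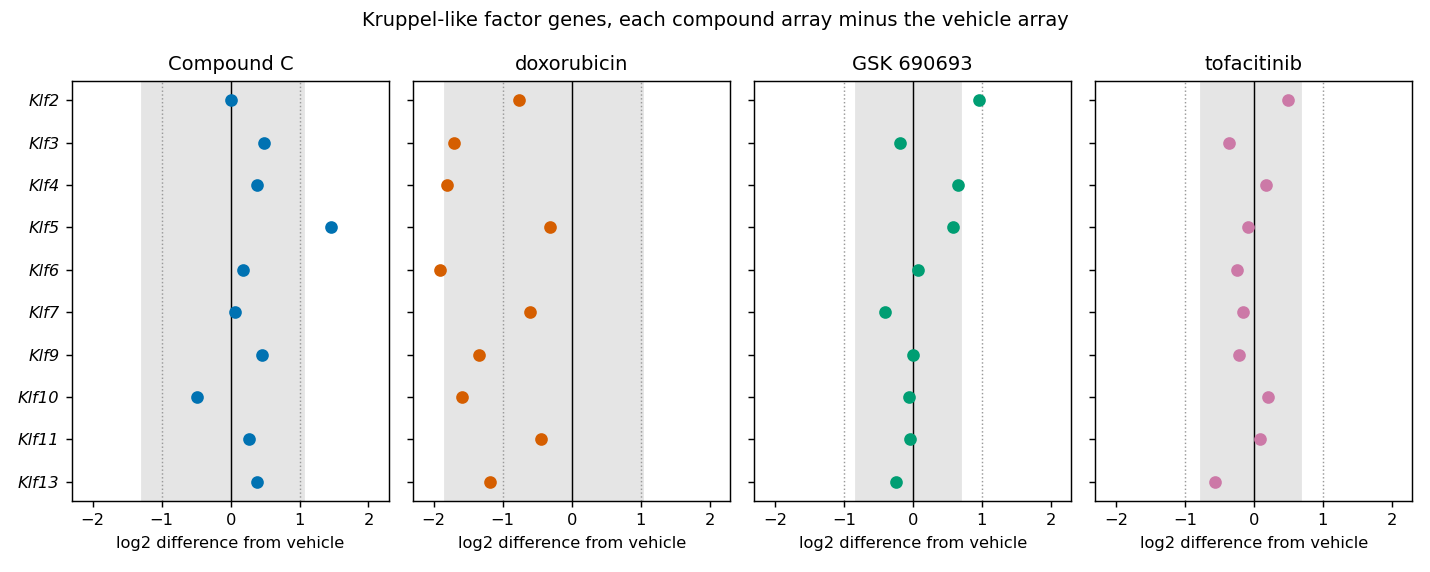
Log2 difference of each compound array from the vehicle array (horizontal axes) for the 10 KLF genes (rows), 1 panel per compound. Grey bands span the 1st to 99th percentile of the 12317 kept genes and dotted lines mark 2-fold. With doxorubicin all 10 points lie left of 0 and Klf6 lies left of the band. With Compound C the Klf5 point lies right of the band, and with GSK 690693 the Klf2 point does.

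Against vehicle, 6 of 10 members were at least 2-fold lower with doxorubicin, namely Klf3, Klf4, Klf6, Klf9, Klf10 and Klf13, where 6.45% of the kept genes were. None was at least 2-fold higher, where 1.33% of the kept genes were. The median difference of the members was −1.26, and that of all kept genes 0.05. Klf6 ranked 106th from the lowest among 12317 genes, Klf4 135th, Klf3 182nd, Klf10 216th, Klf9 390th and Klf13 534th. At the 1.5-fold threshold Klf2 and Klf7 joined them, so that 8 of 10 members were lower, against 14.2% of the kept genes. Klf11 and Klf5 remained nearer to vehicle than that.

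The doxorubicin array held the lowest of the 5 values for 10 of 10 members and for 25.3% of the kept genes. A stricter count, at least 2-fold below each of the other 4 arrays, held for 5 members, Klf3, Klf4, Klf6, Klf9 and Klf10, and for 3.87% of the kept genes. The comparisons with other compounds do not use the vehicle array but share the doxorubicin array with the comparison above. Doxorubicin was at least 2-fold below Compound C for 7 members (7.82% of the kept genes), below GSK 690693 for 6 (7.96%) and below tofacitinib for 6 (8%). Median differences of the members were −1.66 against Compound C, −1.44 against GSK 690693 and −1.19 against tofacitinib. Klf4 had the largest gap in each of these, at −2.20, −2.46 and −1.98. Klf2 was not 2-fold below vehicle or Compound C (−0.76 each) but was below GSK 690693 (−1.72) and tofacitinib (−1.25), the arrays on which it read high.

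**Figure D3:**
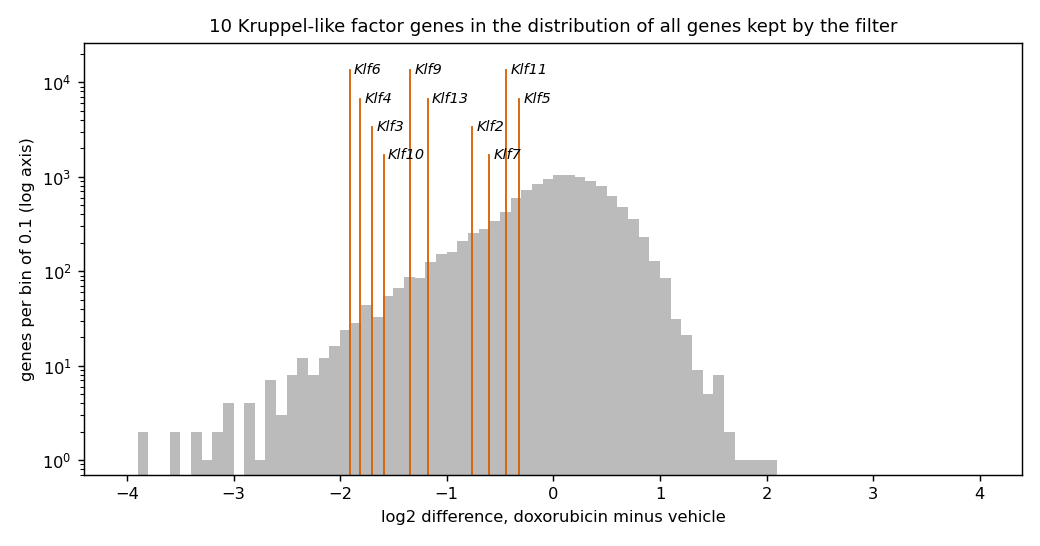
Number of genes (vertical axis, log scale) per bin of 0.1 of the log2 difference of doxorubicin from vehicle (horizontal axis) over the 12317 kept genes, with lines at the 10 KLF genes. The 6 genes from Klf6 at −1.91 to Klf13 at −1.18 lie beyond 2-fold in the lower tail, and Klf5 at −0.32 is the nearest to 0.

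With Compound C, 1 of 10 members, Klf5, was at least 2-fold higher than with vehicle, where 1.3% of the kept genes were, and 0 were at least 2-fold lower, where 2.52% were. The 2.73-fold difference of Klf5 (log2 1.45) was the 50th highest of 12317. The other members lay between −0.49 (Klf10) and 0.49 (Klf3), and 8 of 10 members lay above vehicle by any amount, as 46.6% of the kept genes did. Their median was 0.32, against −0.02 over all kept genes. Of the 10 members, 7 had their highest value on the Compound C array, which was so for 18.4% of the kept genes. The exceptions were Klf2 and Klf4, highest with GSK 690693, and Klf10, highest with tofacitinib.

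GSK 690693 put no member 2-fold above vehicle, where 0.187% of the kept genes were, or 2-fold below it, where 0.601% were. At 1.5-fold, 3 members were higher, against 2.4% of the kept genes, and 0 were lower, against 3.21%. These were Klf2 (0.96, the 28th highest of 12317), Klf4 (0.65) and Klf5 (0.59). The Klf5 value lay at the edge of the 1.5-fold threshold. The other 7 lay between −0.40 (Klf7) and 0.07 (Klf6), and the median over the members was −0.02, against 0.04 over all kept genes. With each array centred on its median the difference of Klf2 became 1.02 and thereby passed 2-fold.

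Both GSK 690693 and Compound C inhibit AMPK, and their arrays were set against each other directly. No member differed by 2-fold between them, where 2.74% of the kept genes were higher with GSK 690693 and 1.32% lower. Klf2 was 0.96 higher with GSK 690693, and Klf5 (−0.86), Klf3 (−0.67) and Klf13 (−0.63) were at least 1.5-fold lower. At that threshold 11.2% of the kept genes were higher and 5.18% lower.

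With tofacitinib no member was 2-fold from vehicle, where 0.0487% of the kept genes were higher and 0.414% lower, and none was 1.5-fold from it, where 2.66% were higher and 2% lower. The members lay between −0.56 (Klf13) and 0.49 (Klf2), and their median was −0.12, against 0.09 for all kept genes. Klf2 read 0.47 lower with tofacitinib than with GSK 690693.

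The members differed from one another in the shape of their profiles. Likeness was measured as the Euclidean distance between profiles over the 5 arrays, each centred on its mean, so that 0 is identity. The closest members were Klf7 and Klf11 at 0.262, both with small ranges, then Klf3 and Klf9 at 0.315 and Klf9 and Klf13 at 0.407. The farthest were Klf5 and Klf10 at 1.826. Klf3 recruits CtBP and Klf9 recruits SIN3A, so the closest pair with large ranges crossed the repressor classes.

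The 2 nearest profiles among all kept genes were taken for each member with a range of 1 or more. Nearest to Klf3 were the kinase gene Dyrk1a (0.096) and Kmt2e (0.101), which encodes a SET domain chromatin protein. Nearest to Klf6 were Champ1 (0.211), a chromosome alignment gene, and Wac (0.233), whose product aids histone H2B ubiquitination. Nearest to Klf4 were the chromatin remodeller gene Chd1 (0.318) and the zinc finger gene Zbtb39 (0.327). Lrif1 (0.121) and the autophagy gene Nrbf2 (0.133) were nearest to Klf9, and the glycosyltransferase gene Gcnt2 (0.135) and Wipf2 (0.166) to Klf13. For Klf10 they were the clock gene Arntl (0.133) and Zbtb1 (0.136). Klf2 had looser neighbours, the dynein subunit gene Wdr60 (0.293) and the inner nuclear membrane gene Lemd3 (0.295), and so had Klf5, with the sterol synthesis gene Cyp51 (0.393) and Ypel2 (0.415). Dyrk1a was 1.69 below vehicle with doxorubicin and 0.57 above it with Compound C, where Klf3 was 1.70 below and 0.49 above. Ypel2 was 1.5 above vehicle with Compound C, as Klf5 was by 1.45. With 5 arrays and 12317 genes, close profiles are found for many genes, and the distances are given as a description.

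Of the other 7 KLF genes, Klf1, Klf14, Klf15 and Klf17 did not pass the filter, and 3 did. Of these, Klf16, another SIN3A-recruiting factor, read 8.06 with Compound C, 6.82 with doxorubicin, 7.58 with GSK 690693, 7.67 with tofacitinib and 7.64 with vehicle. Doxorubicin was again the lowest and lay 0.82 below vehicle, short of 2-fold. The CtBP-recruiting Klf8 stood at −0.52 and Klf12 at 0.09 with doxorubicin. Klf8 was lowest on the doxorubicin array, by 0.10, and Klf12 on the tofacitinib array. Of 4 kept genes of the related SP factors, which bind the same GC boxes, 0 were 2-fold below vehicle with doxorubicin, where 6.45% of the kept genes were. Sp5 (−0.48), Sp3 (−0.47) and Sp1 (−0.40) read lower and Sp4 (0.16) higher. Sp5 read between 5.01 and 5.53, near the array medians, and was lowest with tofacitinib. Sp1 and Sp3 read 0.86 and 0.58 higher with Compound C than with vehicle.

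Of 15 cofactor and ubiquitin ligase genes of partners of KLF proteins, doxorubicin put 2, Sin3a and Crebbp, 2-fold or more below vehicle and 0 as far above it, where 6.45% and 1.33% of the kept genes were, and the median was −0.18. Sin3a, the corepressor of the Klf9 and Klf10 class, read 8.16 with Compound C, 6.86 with doxorubicin, 8.14 with GSK 690693, 8.28 with tofacitinib and 8.21 with vehicle, a difference of −1.35 from vehicle with doxorubicin. The acetyltransferase gene Crebbp stood at −1.15 and the SIN3 complex gene Sap30 at −0.84. The corepressor genes of Klf3 read otherwise, with Ctbp1 0.43 above and Ctbp2 0.14 below vehicle. This pair was added to the named genes after the values were seen.

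In the kinase route that induces Klf2 and Klf4 in endothelium, MEK5, ERK5 and MEF2, all 7 kept genes read above vehicle with Compound C by any amount, as 46.6% of all kept genes did, with a median of 0.18. None was 2-fold higher, where 1.3% of the kept genes were. The largest differences there were in the kinase genes Map3k3 (0.41) and Map3k2 (0.34) and in Mef2a (0.22). With doxorubicin the list median was −0.09 and 1 of 7 genes was 2-fold lower, against 6.45% of the kept genes. That gene, Mef2d, was named after its value was seen and read 9.77 with Compound C, 8.16 with doxorubicin, 9.14 with GSK 690693, 9.16 with tofacitinib and 9.70 with vehicle. At 1.5-fold, 2 of 7 were lower with doxorubicin and 0 higher, against 14.2% and 11.5% of the kept genes. The second was the ERK5 gene Mapk7 (−0.69). The MEK5 gene Map2k5 stood at −0.55. Mapk7 and Map2k5 read lowest on the doxorubicin array and were named after their values were seen.

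Genes induced early by TGF-beta, as Klf10 and Klf11 are, had a median of −1.05 with doxorubicin over 11 kept genes, with 6 at least 2-fold lower and 0 higher, against 6.45% and 1.33% of the kept genes. The transcription factor genes Snai2 (−3.34) and Bhlhe40 (−2.66) and the inhibitory SMAD gene Smad7 (−2.19) were lowest. With Compound C the median of these genes was −0.32, with 2 at least 2-fold lower, Ccn2 and Snai2, and 0 higher, against 2.52% and 1.3% of the kept genes. A second, dim probe set of Ccn2 differed by −0.07. Immediate early factor genes had a median of −0.83 with doxorubicin over 15 kept genes, with 7 at least 2-fold lower and 0 higher, against the same 6.45% and 1.33%. Lowest were Myc (−3.09), Jun (−2.65) and Ier3 (−1.99). At 1.5-fold, 8 of the 15 were lower and 2 higher, against 14.2% and 11.5% of the kept genes. The higher ones were Egr2 (0.74) and Fosb (0.71), named after their values were seen. With Compound C the median was 0.05, with 2 of the 15 at least 2-fold higher and 2 lower, against 1.3% and 2.52% of the kept genes. Nr4a1 (1.81) and Fos (1.15) lay above vehicle and Jun (−1.11) and Myc (−1.05) below it. Of these, Nr4a1 and Fos were named after their values were seen.

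Genes described as KLF targets in other tissues had medians between −0.10 and 0.06 with the 4 compounds over 13 kept genes, and none was 2-fold from vehicle with any of them. The shares of all kept genes at 2-fold ran from 0.0487% (higher with tofacitinib) to 6.45% (lower with doxorubicin). With GSK 690693, 9 of the 13 read below vehicle by any amount and 4 above it. Of all kept genes, 39.29% had a difference of −0.04 or less there and 46.19% one of 0.01 or less. The share below vehicle lies between these values. With GSK 690693 the cell cycle inhibitor gene Cdkn1b (0.63) and the thrombomodulin gene Thbd (0.62), which Klf2 induces in endothelium, read highest against vehicle, followed by the TGF-beta receptor gene Tgfbr1 (0.53). Of other genes that Klf2 induces in endothelium, the sphingosine phosphate receptor gene S1pr1 differed the other way (−0.46). The nitric oxide synthase gene Nos3 (−0.10) differed by less than the yardstick and read between 5.27 and 5.56, near the array medians. Both S1pr1 and Nos3 were named after their values were seen. With doxorubicin Cdkn1b stood at −0.70, Thbd at 0.47 and Tgfbr1 at 0.36. At 1.5-fold, 3 of the 13 were higher with doxorubicin and 3 lower, against 11.5% and 14.2% of the kept genes. Higher were Cebpa (0.77), Ccnd1 (0.67) and Nos2 (0.62), and lower were S1pr1 (−0.84), Cdkn1b and Cdkn1a (−0.67). Their median of 0.05 thus lay between genes on both sides. Cebpa read at most 5.44, near the array medians. Cebpa, Ccnd1, Nos2 and Cdkn1a were named after their values were seen.

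**Figure D4:**
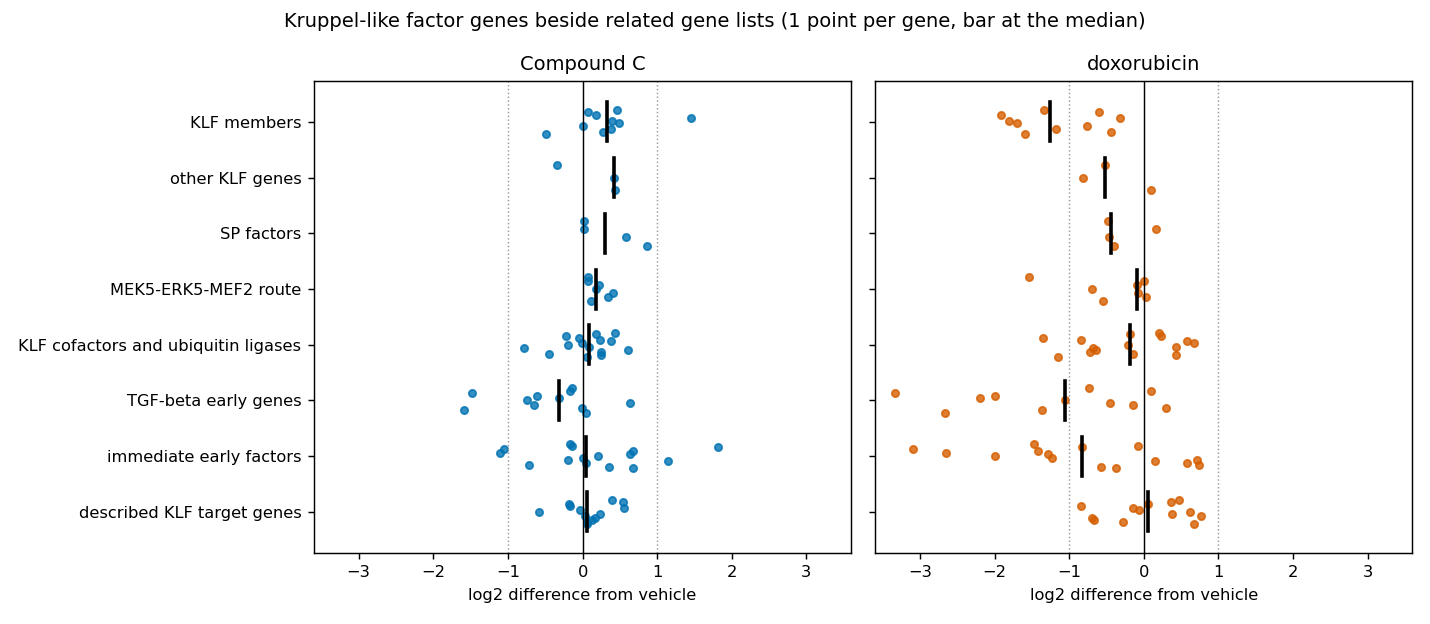
Log2 difference from vehicle (horizontal axes) of the kept genes of the KLF family and of 7 related lists (rows), with Compound C in the left panel and doxorubicin in the right panel; bars mark list medians and dotted lines 2-fold. With doxorubicin the KLF members (median −1.26), the TGF-beta early genes (−1.05) and the immediate early factors (−0.83) lie to the left. The described KLF targets have a median near 0 (0.05), with points on both sides.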

How the data were processed

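Total RNA (300 ng per sample) from 5 samples was hybridised to 1 array each, per the labels' protocols. The deposited table holds 1 log2 value per probe set and array, made with Affymetrix Expression Console 1.3.1.187 per the submitters' processing notes. How the signals were summarised, background-corrected and normalized is not given in the sources used here. A base of 2 for the logarithm was read from the values, which ran from 1.05 to 13.18. A quantile step, if one was used, would have removed a shift shared by most genes. No detection call was used.

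Of 41345 probe sets, 23521 had 1 gene symbol in the platform annotation, 1814 had several and 16010 were not listed. A gene was represented by its probe set with the highest mean, and was kept if its highest value reached the median of that array. Differences are log2 signals on 2 arrays subtracted, counted at 2-fold and 1.5-fold (pandas 2.3.3), and counts of members are set beside the share of all kept genes. The counting was tested on simulated data with little noise and planted differences well beyond 2-fold. That checks the code and not the precision of the counts. Named genes are all members, the 2 nearest profiles of each member with a range of at least 1, and the 3 largest differences of each related list for the compound with the farthest median. The members and lists were chosen with earlier results of these data known. The number of arrays limits the precision.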

Additional observations from a re-analysis of the deposited data

How the results depend on the processing

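The counts and medians over the KLF members were recomputed with array medians centred, with the median of the other 4 arrays in place of vehicle, with the mean of all probe sets, without the filter and, for counts, at 1.5-fold. The count of members lower with doxorubicin was 6 as reported and between 6 and 8 under these settings. At 2-fold it was 6 or 7, where between 3.73% (without the filter) and 6.99% (against the other 4 arrays) of all genes were lower. The 8 was counted at 1.5-fold, where 14.2% of the kept genes were lower. The median of the members stayed between −1.26 and −1.20. The count of members 2-fold higher with GSK 690693 was 0 as reported, 1 after centring (Klf2) and 3 at 1.5-fold. Of the kept genes, 0.187%, 0.292% and 2.4% were higher in these 3 settings. The median with GSK 690693, −0.015, turned to 0.045 after centring and to 0.15 against the other 4 arrays, all close to 0. The other counts and medians moved by less than 1.5 times or by less than 0.258. Among differences of single members, 8 of 40 moved by more than 0.258 against the other 4 arrays, and 1 of 40 with the mean of all probe sets (Klf7 with Compound C, −0.205 instead of 0.07). No paired analysis was possible because each group has 1 array. For the same reason no array could be left out of a group, and treatment cannot be told apart from the array or culture.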
